A study of Mus musculus with 6 samples.

Results

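The genes described here are the mouse genes whose symbol is Zfp followed by a number, 69 of the 4233 genes in the deposited table. Membership follows the name alone, and the family was chosen with earlier results of these data known. Lymphatic endothelial cells were sorted from the meninges, the membranes that cover the brain, as live CD45- CD31+ podoplanin+ singlets, and their RNA was amplified linearly before sequencing. The 5xFAD group held 3 libraries from male hemizygous 5xFAD mice, and the WT group held 3 libraries from male non-transgenic littermates. All mice were on the C57BL/6J strain and aged 6 months, and every library was made from cells pooled from 10 mice. The 5xFAD strain expresses mutant human amyloid precursor protein and presenilin transgenes under the neuronal Thy1 promoter, so the sorted endothelial cells are not the cells in which the transgenes are meant to act. The question is whether Zfp gene expression in meningeal lymphatic cells depends on carrying the transgenes.

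Most genes with the Zfp name encode proteins that bind DNA through C2H2 zinc fingers, short loops in which a pair of cysteines and a pair of histidines hold a zinc ion. Many of them also carry a KRAB domain. That domain recruits the corepressor Trim28 and, through it, the histone methyltransferase Setdb1, and this pathway is best known for silencing transposable elements and imprinted loci. KRAB genes multiplied by tandem duplication and lie in clusters of similar neighbours. A few genes share the name without this fold, such as the CCCH proteins Zfp36l1 and Zfp36l2, which bind AU-rich elements in mRNA and promote its decay.

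The name was checked against the coding sequences of the GENCODE M21 annotation, where each of the 69 genes had 1 gene entry and where 416 gene names follow the same pattern. At least 1 C2H2 finger pattern was found in 65 of the 69. The exceptions were the CCCH genes Zfp36l1 and Zfp36l2, Zfp839, which gave no match, and Zfp783, which is annotated as a transcribed pseudogene. A KRAB box was matched in 36 genes, with a clear gap: the lowest match in that class had 19 identical positions of 37, and the highest outside it had 10. A box that differs too much from the sequence compared would be missed, so genes without a match may still carry one. The 36 KRAB genes held a median of 12 finger patterns (3 to 27). The 28 other C2H2 genes held a median of 8.5 (1 to 27), and Zfp263 had a SCAN domain, a protein interaction domain, without a KRAB match. Of the KRAB genes, 31 of 36 lay within 200 kb of another protein-coding Zfp gene, against 5 of the 33 remaining genes. The 69 genes were spread over 16 chromosomes, and chromosome 7 held the most, with 14.

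The values are normalised read counts, and a gene was tested where its mean over the 6 libraries was at least 10, which all 69 Zfp genes passed. Recovered reads in the listed genes ranged from 7960827 to 13255050 in the 5xFAD libraries and from 10263689 to 11934686 in the WT libraries. Zfp genes took 0.620% to 0.854% of these reads in 5xFAD and 0.737% to 0.856% in WT. The number of listed genes without reads was 107 ± 34.9 in 5xFAD and 31 ± 9.54 in WT (SD, n = 3 each; exact permutation p = 0.1, two-sided, the smallest that 3 against 3 allows). Among the Zfp genes, 1, 2 and 2 had no reads in the 5xFAD libraries and none lacked reads in the WT libraries. The part of these missing reads in the results was not tested. Within a genotype every gene of the table has an SD of log2(reads + 1) under 2, a limit that no source used here states. A gene at 0 throughout one genotype meets such a limit, while one read in some libraries of a group and missing from others may fail it and be unlisted. All 8 lymphatic endothelial markers examined, Prox1, Flt4, Lyve1, Pdpn, Pecam1, Ccl21a, Mmrn1 and Reln, were listed, with summed normalised counts of 215844 to 334276 in 5xFAD and 236762 to 278135 in WT. Of other cell types, 5 of 6 blood endothelial markers summed to 19723 to 26643 in 5xFAD and 14306 to 26252 in WT, and 4 of 6 fibroblast markers to 23234 to 26444 in 5xFAD and 21810 to 40158 in WT. Pdgfrb was the 1 mural marker of 5 listed, at 167 to 742 in 5xFAD and 502 to 830 in WT. The 6 leukocyte and 4 erythroid or platelet markers were not among the listed genes. The part of these cell types in the results below was not tested. In pooled cells, fewer cells of a type and less RNA per cell cannot be told apart.

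Of the 69 Zfp genes, 5 were lower and 1 was higher in 5xFAD than in WT (limma, Benjamini-Hochberg adjusted p under 0.05 over all 4152 genes tested). The lower genes were Zfp358, Zfp869, Zfp677, Zfp940 and Zfp263, and the higher gene was Zfp157. That is 8.70% of the Zfp genes, beside 6.36% of all genes tested, a share near the background. By direction, 4.48% of all genes were called lower and 1.88% higher. On recovered reads edgeR called 5 Zfp genes, all lower (7.25%), beside 5.65% of its genes in either direction, 3.88% lower and 1.78% higher. DESeq2 called 10 Zfp genes, 7 lower and 3 higher (14.5%), beside 10.3% of its genes in either direction, 6.4% lower and 3.88% higher. A KRAB box was matched in Zfp869, Zfp677, Zfp940 and Zfp157, a SCAN domain alone in Zfp263, and neither in Zfp358. None of the 6 has exons that overlap another annotated gene.

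Zfp358 and Zfp869 had almost no reads in any 5xFAD library and reads in every WT library. Zfp358 had normalised counts of 0.829, 0 and 0 in the 5xFAD libraries, against 175, 81.8 and 618 in the WT libraries. This is 1 read in 5xFAD and 1000 in WT, a WT over 5xFAD ratio of 813 (95% counting interval 146 to 32136; limma adjusted p = 4.39e-10). Zfp869 was at 0 in all 3 5xFAD libraries, against 330, 139 and 28.3 in the WT libraries. With a floor of 3 reads over the 5xFAD group it was at least 153-fold lower in 5xFAD (limma adjusted p = 9.99e-09). Both calls were kept under all 18 other settings, edgeR and DESeq2 on recovered reads included. Another of the 18 is the main fit read at an adjusted p under 0.1, which cannot lose a call. The Zfp358 ratio rested in part on WT 3, and was 365 without that library. Without 5xFAD 1, which held its 1 read, Zfp358 was at least 153-fold lower. That is a bound from the floor and cannot be set beside the ratio. The log2 fold change was -7.70 without 5xFAD 1 and -7.41 with all libraries. The Zfp869 bound was 77.4 without WT 1 and 86.9 without 5xFAD 1, where fewer libraries stand behind the floor.

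Zfp677, Zfp940 and Zfp263 were read in all 6 libraries and lay lower in every 5xFAD library than in any WT library. Zfp677 had normalised counts of 14.1, 173 and 61.0 in the 5xFAD libraries, against 934, 464 and 970 in the WT libraries. Its log2 fold change, on the scale of log2(value + 1), was -3.78 (SE 1.05; limma adjusted p = 0.00767). Zfp940 was at 34.8, 203 and 157 in the 5xFAD libraries, against 1099, 3049 and 455 in the WT libraries. The gap between its groups is from 203 to 455, and the spread within WT is wider than that gap. Its log2 fold change was -3.46 (SE 1.03; limma adjusted p = 0.0160). Zfp263, whose human counterpart ZNF263 is a sequence-specific DNA-binding factor, was at 180, 237 and 39.8 in the 5xFAD libraries, against 3180, 623 and 1121 in the WT libraries. Its log2 fold change was -3.44 (SE 1.02; limma adjusted p = 0.0160).

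These 3 calls depended on which libraries were in the fit. Without WT 1 none of the 3 passed (limma adjusted p = 0.0571 for Zfp677, 0.0638 for Zfp940 and 0.203 for Zfp263), and Zfp263 was at -2.79. Zfp677 also missed the threshold without 5xFAD 1 (-2.85, limma adjusted p = 0.153) and without WT 3 (-3.59, limma adjusted p = 0.0528), and was at -4.62 without 5xFAD 2. Zfp940 missed it without 5xFAD 1 (-2.68, limma adjusted p = 0.171) and without WT 2 (-2.76, limma adjusted p = 0.224), and was at -4.13 without WT 3. Zfp263 missed it without 5xFAD 3 (-2.65, limma adjusted p = 0.174). Over the 18 other settings the adjusted p ran from 0.00258 to 0.153 for Zfp677, from 0.00134 to 0.224 for Zfp940 and from 0.00153 to 0.203 for Zfp263.

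Zfp157 was the 1 Zfp gene called higher. It had normalised counts of 284, 214 and 1861 in the 5xFAD libraries, against 30.4, 215 and 16.8 in the WT libraries. The groups overlap, since 5xFAD 2 and WT 2 were at the same level, and 5xFAD 3 stands far above the other libraries. The log2 fold change was 3.30 (SE 1.06; limma adjusted p = 0.0324). The call was lost without 5xFAD 3 (2.33, limma adjusted p = 0.364), without WT 1 (2.97, limma adjusted p = 0.167) and without WT 3 (2.56, limma adjusted p = 0.270), and the value was 4.36 without WT 2 and 3.88 without 5xFAD 2. It was also lost with edgeR on recovered reads (edgeR adjusted p = 0.0670). Its adjusted p over the 18 other settings ran from 0.0116 to 0.364.

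**Figure D1:**
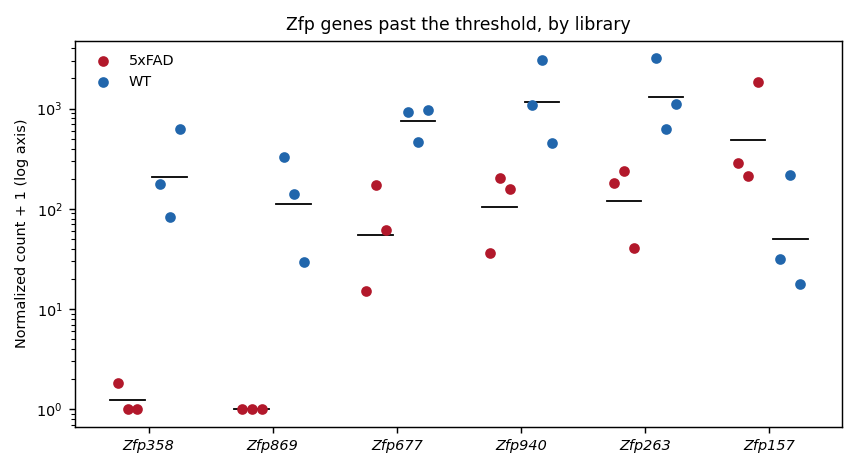
Normalised count + 1 on a log axis for the 6 Zfp genes past the threshold, with 1 point per library (3 5xFAD in red, 3 WT in blue) and a black line at each group's mean on the log scale. Zfp869 is at 0 in all 3 5xFAD libraries, 5 genes lie lower in 5xFAD without overlap, and the groups of Zfp157 overlap at 214 and 215.

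The sequences before the transcription starts of these 6 genes are shown so that the called genes can be compared at their starts. They come from RefSeq on GRCm38.p6, the 250 bases upstream of the start, 5′ to 3′ on the strand of the gene. The RefSeq start of Zfp869 lies outside the GENCODE span of the gene given later. Capitals mark the CCAAT box (CCAAT, or ATTGG on the other strand) and the GC box (GGGCGG, or CCGCCC on the other strand).
Zfp358, chr8:3492888-3493137, plus strand: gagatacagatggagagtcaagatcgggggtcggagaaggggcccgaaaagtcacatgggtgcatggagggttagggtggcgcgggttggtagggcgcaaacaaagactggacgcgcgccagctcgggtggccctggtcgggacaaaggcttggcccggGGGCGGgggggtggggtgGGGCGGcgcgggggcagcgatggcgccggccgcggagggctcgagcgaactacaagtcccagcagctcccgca
Zfp869, chr8:69716903-69717152, minus strand: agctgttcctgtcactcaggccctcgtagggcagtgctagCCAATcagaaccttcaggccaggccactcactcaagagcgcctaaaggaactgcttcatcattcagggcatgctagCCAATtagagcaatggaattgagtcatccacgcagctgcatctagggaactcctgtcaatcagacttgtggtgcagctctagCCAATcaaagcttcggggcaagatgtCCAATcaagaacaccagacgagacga
Zfp677, chr17:21383498-21383747, plus strand: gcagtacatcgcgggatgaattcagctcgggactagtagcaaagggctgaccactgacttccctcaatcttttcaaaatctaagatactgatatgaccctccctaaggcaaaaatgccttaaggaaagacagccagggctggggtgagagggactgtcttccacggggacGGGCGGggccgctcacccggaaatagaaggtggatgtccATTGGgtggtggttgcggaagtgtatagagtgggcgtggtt
Zfp940, chr7:29853649-29853898, minus strand: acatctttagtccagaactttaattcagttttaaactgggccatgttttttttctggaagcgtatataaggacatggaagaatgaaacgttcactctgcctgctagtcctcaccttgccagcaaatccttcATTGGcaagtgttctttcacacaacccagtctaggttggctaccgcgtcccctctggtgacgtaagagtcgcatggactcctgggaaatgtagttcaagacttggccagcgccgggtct
Zfp263, chr16:3743849-3744098, plus strand: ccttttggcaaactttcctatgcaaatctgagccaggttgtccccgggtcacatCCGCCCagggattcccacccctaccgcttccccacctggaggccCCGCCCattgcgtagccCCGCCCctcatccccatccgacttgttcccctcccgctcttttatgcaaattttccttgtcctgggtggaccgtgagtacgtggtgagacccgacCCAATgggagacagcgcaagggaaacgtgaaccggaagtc
Zfp157, chr5:138441226-138441475, plus strand: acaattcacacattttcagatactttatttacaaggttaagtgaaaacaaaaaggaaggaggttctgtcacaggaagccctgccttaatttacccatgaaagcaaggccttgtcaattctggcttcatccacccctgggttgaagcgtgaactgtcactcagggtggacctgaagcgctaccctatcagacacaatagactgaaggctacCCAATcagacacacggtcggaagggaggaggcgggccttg

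The 6 windows differ in base composition and in these motifs. Zfp358 is the richest in G and C, at 69.2%, with 2 GC boxes and no CCAAT box. Zfp869, the other gene nearly without 5xFAD reads, has 52.0% G and C, 4 CCAAT boxes and no GC box. Zfp263 has 3 GC boxes and 1 CCAAT box, Zfp677 has 1 of each, and Zfp940 and Zfp157 have 1 CCAAT box each and no GC box, so the gene called higher shares its motif count with a gene called lower. Over the 32851 mouse windows of the same length, 33.8% hold a CCAAT box and 32.7% a GC box. Over the 74 windows of the 61 Zfp genes matched in the RefSeq table the shares were 47.3% and 45.9%. At least 4 CCAAT boxes were found in 0.840% of all windows and in 2 Zfp genes, Zfp869 and Zfp691, a number set after the Zfp869 window had been read. Such matches describe the letters and are not binding sites.

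Across all 69 genes the fold changes centred near 0. Their median log2 fold change was 0.15, with 36 positive and 33 negative values, beside -0.02 over all tested genes. The Zfp median was -0.22 without WT 3 and -0.13 with edgeR, so its sign is not fixed by these libraries. The spread of Zfp genes within a group was wide, with a median SD of 1.24 on the log2 scale beside 1.08 over all tested genes. Their levels were lower, with a median of the mean normalised counts of 429 beside 783. Spread was not compared at equal level. The 95% interval of a fold change reached a median of 2.03 to either side, so changes of that size on the log2 scale were within the error of a typical Zfp gene. The 63 genes that were not called ran from -2.94 to 2.30, and of all 69 genes 21 lay within 0.5 of 0 on the log2 scale. In 16 of the 69 genes the 5xFAD and WT libraries did not overlap, 10 lower and 6 higher. This is 23.2%, beside 18.1% of all tested genes, 10.1% lower and 7.97% higher. Besides the 5 called genes, the lower ones were Zfp865, Zfp965, Zfp273, Zfp30 and Zfp783, and the higher ones were Zfp568, Zfp738, Zfp974, Zfp64, Zfp422 and Zfp729a.

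**Figure D2:**
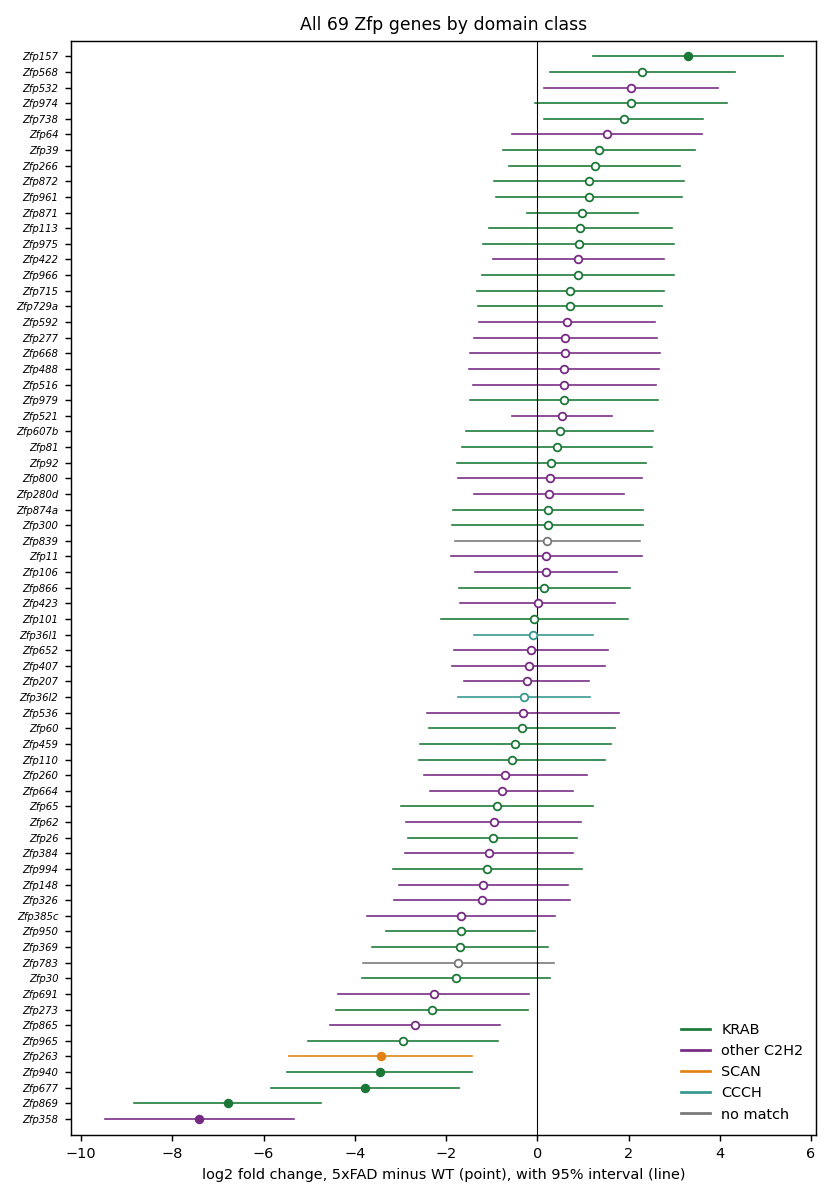
log2 fold change (5xFAD minus WT, horizontal axis) of each of the 69 Zfp genes with its 95% interval, coloured by domain class, with filled points for genes past the threshold. The 5 genes at the bottom run from -3.44 to -7.41, Zfp157 at the top is at 3.30, and most intervals cross 0.

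**Figure D3:**
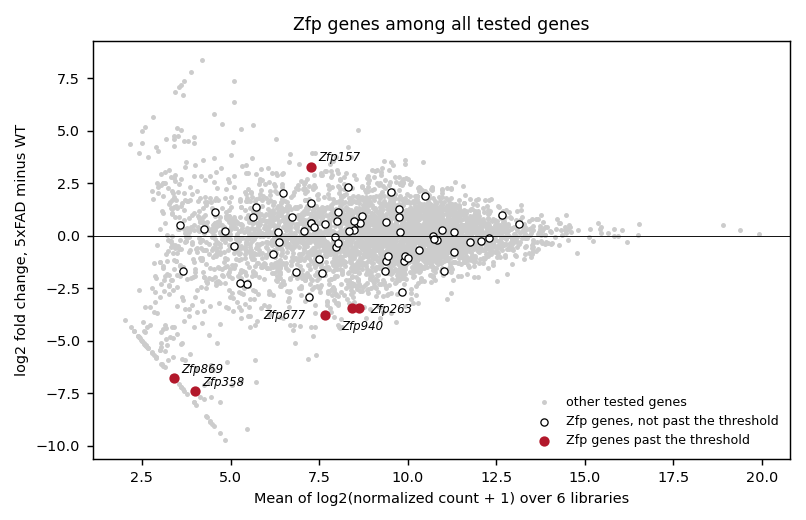
log2 fold change (5xFAD minus WT, vertical axis) against mean log2 level (horizontal axis) for all 4152 tested genes, with Zfp genes as circles. Zfp genes lie within the cloud of other genes, and Zfp358 and Zfp869 lie on the lower left edge formed by genes with reads in WT and almost none in 5xFAD.

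Several genes lay just outside the threshold. Zfp865 had normalised counts of 610, 728 and 107 in the 5xFAD libraries, against 1031, 2498 and 4973 in the WT libraries, without overlap (log2 fold change -2.68, SE 0.95; limma adjusted p = 0.0664). It passed under 4 of 18 other settings, DESeq2 among them (DESeq2 adjusted p = 0.0307; range over other settings 0.0307 to 0.370). Among these 4 is the main fit itself, read at an adjusted p under 0.1. The log2 fold change was -1.81 without 5xFAD 3 and -3.27 without WT 1. Its exons overlap those of 4 other genes, Zfp784 among them, and 27.8% of its 31-base words also occur in another gene, so its level is uncertain. Zfp965 was at 73.0, 148 and 13.3 in the 5xFAD libraries, against 173, 266 and 1545 in the WT libraries (log2 fold change -2.94, SE 1.06; limma adjusted p = 0.0736). It passed under 3 of 18 other settings, again with the main fit read at 0.1 among them (adjusted p from 0.0218 to 0.511). Its log2 fold change was -1.98 without 5xFAD 3, -1.99 without WT 3, -3.57 without WT 1 and -3.68 without 5xFAD 2. Zfp965 shares 97.9% of its 31-base words with other genes, and 83.7% of its words occur in Zfp973, so its level is uncertain too. The next lower genes were Zfp273 (-2.31), Zfp691 (-2.27) and Zfp950 (-1.68), with limma adjusted p from 0.229 to 0.276. Zfp273 shares 29.1% of its 31-base words with other genes, so its level is uncertain as well. Zfp691 was at -1.48 without 5xFAD 2 and -3.09 without WT 1, and Zfp950 was at -2.56 without 5xFAD 1.

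On the other side, 4 of the 36 KRAB genes, Zfp568, Zfp738, Zfp974 and Zfp729a, had non-overlapping groups with higher 5xFAD values and did not pass. Another 6 of the 36 KRAB genes lay lower without overlap. In either direction this is 27.8% of the KRAB genes, beside 18.1% of all tested genes, and the difference was not tested. Zfp568, which in mouse embryos represses a placental transcript of Igf2, was at 1618, 190 and 1134 in the 5xFAD libraries, against 171, 133 and 126 in the WT libraries (log2 fold change 2.30, SE 1.03; limma adjusted p = 0.204). The WT libraries lie close together and the 5xFAD libraries far apart, and the log2 fold change was 1.70 without 5xFAD 1 and 3.25 without 5xFAD 2. Zfp738 was at 3900, 1809 and 2944 in the 5xFAD libraries, against 510, 831 and 955 in the WT libraries (log2 fold change 1.89, SE 0.89; limma adjusted p = 0.240). Zfp974 was at 250, 107 and 219 in the 5xFAD libraries, against 43.6, 71.6 and 24.8 in the WT libraries (log2 fold change 2.05; limma adjusted p = 0.323). DESeq2 on recovered reads did call Zfp568 (DESeq2 adjusted p = 0.00949; range over other settings 0.00949 to 0.543) and Zfp738 (DESeq2 adjusted p = 0.0469; range 0.0469 to 0.488), and edgeR called neither. Zfp532, a C2H2 gene without a KRAB box, was at 458, 3150 and 2437 in the 5xFAD libraries, against 683, 796 and 87.6 in the WT libraries, with overlap (log2 fold change 2.06; limma adjusted p = 0.240; 1.04 without WT 3 and 2.93 without 5xFAD 1).

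By domain class, 4 of the 36 KRAB genes were called, 3 lower and 1 higher, which is 11.1%. Of the 33 genes without a KRAB match 2 were called, both lower, which is 6.06%. The background of all tested genes is 6.36%, and the difference between the classes was not tested. The median log2 fold change was 0.27 for the KRAB genes (21 positive, 15 negative) and -0.14 for the others (15 positive, 18 negative). KRAB genes had the lower levels per length, with a median of 50.9 normalised counts per kb of exon against 125 for the 28 other C2H2 genes, and the wider spread within groups, with a median SD of 1.31 on the log2 scale against 1.16 for the 33 other genes.

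Neighbouring genes were compared because KRAB genes arise in tandem. Joining Zfp genes of the table that lie within 1000 kb of each other gave 10 groups with 28 genes, and 7 of the 10 groups held both positive and negative log2 fold changes. The number for random signs was not computed, so this is a description only. On chromosome 7, Zfp940 (29833620 to 29853669) lies between Zfp30 and Zfp568 in a group that spans 324 kb. Zfp940 fell (-3.46), while Zfp30, which in mice has been tied to neutrophil chemokine levels in the airway, was at -1.78 without passing, Zfp568 at 2.30 and Zfp260 at -0.70. On chromosome 8, Zfp869 (69706332 to 69710724) and Zfp866 together span 84.8 kb. Zfp866 was at 712, 1381 and 803 in the 5xFAD libraries, against 643, 842 and 1055 in the WT libraries, a log2 fold change of 0.15 (95% interval -1.72 to 2.03), so the near absence of Zfp869 reads in 5xFAD did not extend to this neighbour. On chromosome 5, Zfp157 (138441468 to 138460694) rose by 3.30 on the log2 scale, and its neighbour Zfp113 was at 0.94 (limma adjusted p = 0.750). On chromosome 17, Zfp677 (21383748 to 21399265) fell by 3.78 on the log2 scale, and Zfp994 was at -1.10 (limma adjusted p = 0.699). The largest group, 6 KRAB genes over 421 kb of chromosome 13, ran from -2.31 for Zfp273 to 1.89 for Zfp738, with Zfp65 at -0.88, Zfp459 at -0.48, Zfp874a at 0.23 and Zfp729a at 0.72, and none of the 6 passed. Against the whole annotation, 5 of the 36 genes within 200 kb of another Zfp gene were called (13.9%), and 1 of the 33 without such a neighbour (3.03%), beside 6.36% of all tested genes. Groups did not overlap in 13 of these 36 genes (36.1%) and in 3 of these 33 (9.09%), beside 18.1% of all tested genes. The distances were chosen after the data were seen, and the difference was not tested.

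**Figure D4:**
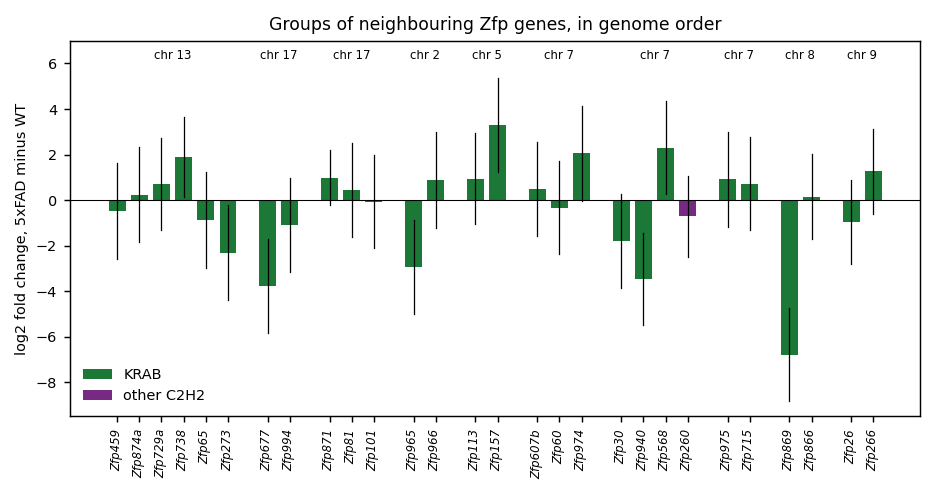
Bars give the log2 fold change (5xFAD minus WT, vertical axis) and lines the 95% interval of the 28 Zfp genes that lie in 10 groups of neighbours, in genome order and coloured by domain class. Neighbours often point in opposite directions, as Zfp940 at -3.46 and Zfp568 at 2.30 do on chromosome 7.

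The Zfp genes with the most reads did not pass the test. Per kb of exon the order began with Zfp36l1 at 1703 normalised counts per kb, Zfp521 at 1629, Zfp36l2 at 1038, Zfp871 at 710 and Zfp207 at 708, each a mean over 6 libraries. The order is not the same in both groups: per kb, Zfp521 was at 2099 in 5xFAD and 1158 in WT, Zfp36l1 at 1647 in 5xFAD and 1759 in WT, Zfp871 at 976 in 5xFAD and 443 in WT, and Zfp207 at 716 in 5xFAD and 699.8 in WT. Zfp36l1 was at 4789, 5907 and 4080 in the 5xFAD libraries, against 6002, 5676 and 4104 in the WT libraries (log2 fold change -0.09, 95% interval -1.40 to 1.21). Zfp36l2 was at 1982, 3545 and 4300 in the 5xFAD libraries, against 3957, 5762 and 2429 in the WT libraries (log2 fold change -0.29, 95% interval -1.74 to 1.16). For both genes the groups overlap and the intervals allow a change of more than 2-fold in either direction. Those intervals rest on genes of similar level, not on the 2 genes' own spread. On the log2 scale the SD of Zfp36l1 was 0.27 in 5xFAD and 0.30 in WT. That of Zfp36l2 was 0.58 in 5xFAD and 0.62 in WT. The exons of Zfp36l1 overlap Gm26669 and share 53.2% of their 31-base words with it, so part of its level may belong to that gene.

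Among the C2H2 genes without a KRAB box, Zfp521, a cofactor in stem and progenitor cells, was at 4315, 9912 and 30037 in the 5xFAD libraries, against 5975, 5322 and 13130 in the WT libraries. The groups overlap, and 5xFAD 3 held the highest value (log2 fold change 0.54, SE 0.55; limma adjusted p = 0.728; -0.19 without 5xFAD 3 and 1.21 without 5xFAD 1). Its close relative Zfp423, known for its part in the commitment of fat cell precursors, was at 2533, 1471 and 1278 in the 5xFAD libraries, against 1895, 1311 and 1900 in the WT libraries, with a log2 fold change of 0.00 (95% interval -1.69 to 1.70). Zfp207, a kinetochore and spindle protein, was at 7052, 5696 and 1544 in the 5xFAD libraries, against 4371, 4866 and 4741 in the WT libraries, so that 5xFAD 3 was far lower than the other 5 libraries (log2 fold change -0.23; 0.45 without 5xFAD 3).

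Zfp664 showed the same library apart, at 3615, 4005 and 502 in the 5xFAD libraries, against 2273, 2343 and 6983 in the WT libraries (log2 fold change -0.78; 0.19 without 5xFAD 3). Zfp871, the KRAB gene with the highest level per kb, was at 8234, 4751 and 19576 in the 5xFAD libraries, against 3020, 4409 and 7339 in the WT libraries (log2 fold change 0.99, SE 0.62; limma adjusted p = 0.449). Zfp950, another KRAB gene, was at 3915, 664 and 597 in the 5xFAD libraries, against 3729, 2927 and 4698 in the WT libraries, where 5xFAD 1 lay within the WT range. Zfp106, an RNA-binding protein needed for motor neuron upkeep in mice, had a log2 fold change of 0.19, Zfp280d of 0.25 and Zfp407 of -0.19 (0.50 without WT 3), each with limma adjusted p above 0.9.

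Other genes with known roles likewise did not pass. Zfp148, a factor that binds GC-rich promoters, was at 311, 1664 and 496 in the 5xFAD libraries, against 783, 1004 and 3835 in the WT libraries. Zfp326, part of a complex that links transcript elongation to splicing, was at 118, 745 and 978 in the 5xFAD libraries, against 197, 2844 and 1928 in the WT libraries. Their groups overlap, with log2 fold changes of -1.18 and -1.22. Zfp110 and Zfp369, which encode interactors of the neurotrophin receptor p75, were at -0.55 and -1.70. Zfp384, a nuclear matrix factor, was at -1.06, and Zfp64 at 1.53 with non-overlapping groups of 228 to 334 in 5xFAD and 57.5 to 177 in WT. The limma adjusted p of these 6 genes ran from 0.404 to 0.880.

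Reads of near-identical genes can be divided among them by the quantification, so shared sequence was measured for each Zfp gene as the share of its 31-base transcript words that also occur in another gene, on either strand. The median was 4.97%. The share exceeded 10% in 25 genes and 50% in 3, which were Zfp965, Zfp966 (93.9%) and Zfp36l1, and the levels of these 3 are uncertain. The same caution holds, with smaller shares, for the other genes above 10%. Of the 25 genes above 10% 1 was called (4%), and of the 44 others 5 (11.4%), beside 6.36% of all tested genes, and the difference was not tested. Among the called genes the share was 14.2% for Zfp869, most of it with Zfp868, which is not in the table. It was 2.47% for Zfp940, 1.45% for Zfp677, 1.19% for Zfp157, 0.455% for Zfp263 and 0% for Zfp358.

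Genes of the pathways in which Zfp proteins act were read from lists taken with earlier results of these data known. Of 42 genes of the KRAB corepressor and silencing machinery, 20 were tested. By limma 0 of them passed, and 1 had an unadjusted p below 0.05 (16.3% of all tested genes did). edgeR and DESeq2 each called 0. The median log2 fold change of the list was 0.07. The gene with the low unadjusted p was Atf7ip, the partner of Setdb1, at 220, 53.5 and 691 in the 5xFAD libraries, against 855, 3402 and 1134 in the WT libraries (log2 fold change -2.88, SE 1.00; limma adjusted p = 0.0591). Its groups do not overlap. Trim28 and Setdb1 themselves were not among the tested genes, so the result of the list does not cover them. Chd4 was at 1.19 with overlap and Atrx, a chromatin remodeller at silenced repeats, at 0.75 without overlap, neither of them passing. Groups did not overlap in 3 of the 20 genes (15%), 1 higher and 2 lower, beside 18.1% of all tested genes.

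Of 40 mRNA decay genes, 14 were tested and 1 rose, Cnot9, a subunit of the CCR4-NOT deadenylase that Zfp36 proteins recruit. Cnot9 was at 135, 176 and 158 in the 5xFAD libraries, against 6.57, 2.79 and 11.5 in the WT libraries, where each WT library held 3 to 13 reads (log2 fold change 4.46, SE 1.07; limma adjusted p = 0.000946). The groups lie far apart, the 5xFAD libraries lie close together, and the WT levels are low, so the fold depends on the pseudocount (3.81 with a pseudocount of 5). The call was kept in all 18 other settings, of which the looser threshold of 0.1 could not lose it. Cnot1, the scaffold of the same complex, was at 1.71 with overlap and did not pass (limma adjusted p = 0.367). Cnot6l, of the same list, was at -1.51 without overlap and did not pass either (limma adjusted p = 0.412). Groups did not overlap in 3 of the 14 genes (21.4%), 1 higher and 2 lower, beside 18.1% of all tested genes.

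Zinc finger genes under other names were read in the same way. Of 34 tested C2H2 factors with other names, 1 rose and 1 fell by limma. DESeq2, with 35 tested, called 0 higher and 2 lower, Sp2 and Jazf1, and Jazf1 was below the level filter of the limma test. Sp2, an Sp-family factor, was at 7.46, 94.8 and 15.9 in the 5xFAD libraries, against 711, 1795 and 1435 in the WT libraries (log2 fold change -5.68; limma adjusted p = 5.40e-06). Sp2 was at -6.68 without 5xFAD 2 and -4.93 without 5xFAD 1. Mynn was at 156, 37.7 and 26.5 in the 5xFAD libraries, against 0, 7.44 and 0 in the WT libraries, which together held 8 reads. It rose by 4.76 on the log2 scale (limma adjusted p = 0.000215), a size that depends on the pseudocount (5.44 with 0.5 and 3.15 with 5). It was at 5.78 without WT 2 and 4.0 without 5xFAD 1, and DESeq2 did not call it (DESeq2 adjusted p = 0.0880; range over other settings 2.71e-05 to 0.0880). Of 12 Zbtb genes 1 fell, Zbtb17, which encodes the Myc partner Miz-1. It was at 0 in all 3 5xFAD libraries, against 150, 65.1 and 111 in the WT libraries, at least 101-fold lower in 5xFAD (limma adjusted p = 1.59e-08). The bound was 57.1 without 5xFAD 1, where fewer libraries stand behind the floor. Of 3 Zscan and Zkscan genes 1 fell, Zscan26, at 1812, 1600 and 273 in the 5xFAD libraries, against 3295, 7190 and 10029 in the WT libraries (log2 fold change -2.74; limma adjusted p = 0.0140). Its call was lost without 5xFAD 3 (-1.86, limma adjusted p = 0.165), without WT 2 (-2.63, limma adjusted p = 0.111) and without WT 3 (-2.39, limma adjusted p = 0.148), and with a robust prior without mean trend (limma adjusted p = 0.0877). Its adjusted p over other settings ran from 0.00754 to 0.165. Of the 4 tested Zc3h genes 0 passed by limma, and 1 had an unadjusted p below 0.05, beside the 16.3% of all tested genes. edgeR and DESeq2 each called 0 of them. These lists share the 6.36% background of all tested genes, and none was tested as a list.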

How the data were processed

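RNA sequencing of sorted meningeal lymphatic endothelial cells was deposited as 1 table of normalised counts, a signal in which each library's gene counts carry a common factor. Per the submitters' processing notes, the tools were FastQC, Trimmomatic, Salmon and DESeq2 and the build was mm10; settings are not given in the sources used here. All values (100%, within 1e-06) were whole multiples of the smallest value above 0 in their column, so reads were recovered. The counting interval of the Zfp358 read ratio and the floors reflect counting error alone. Intervals of fold changes come from the limma fit instead, and rest on the spread between libraries in genes of similar level.

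The 4152 of 4233 genes whose mean reached 10 were tested with limma 3.58.1 in R 4.3.3 on log2(value + 1), two-sided, with a prior variance that follows level. Its degrees of freedom came out infinite: an SE therefore reflects genes of similar level, not a gene's own replicates. The limma p-values likewise rest on the spread between these libraries in genes of similar level, not on a gene's own spread. Nothing says that the pools of a group are independent beyond their labels. edgeR 4.0.16 called 232 genes and DESeq2 1.42.0 called 432 on recovered reads. Folds against a group without reads use a floor of 3 reads over that group.

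The Zfp genes and lists were chosen with earlier results of these data known. Named genes were all called Zfp genes, the 10 with the highest means, the next 5 by p in each direction, and called genes of related lists. Other genes named were chosen after their values were seen. Positions and coding sequences are from GENCODE M21 (GRCm38). Domains were matched in translated coding sequences (a finger pattern, a SCAN pattern, and at least 15 of 37 positions identical to a KRAB A box consensus), since no protein table was used. The result of 1 marker list is not reported here.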

Additional observations from a re-analysis of the deposited data

How the results depend on the processing

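Of the named genes' values under other settings, 475 kept their direction and side of the threshold, 19 lost a call, 9 gained one and 18 changed sign. These settings include the main fit read at an adjusted p under 0.1, where a call can be gained and not lost. The counts of called Zfp genes, 1 higher and 5 lower, were 0 higher with edgeR, with edgeR without a filter and with a robust prior without mean trend. They were 3 higher and 10 in all with DESeq2. The cause was not tested. With a library left out, between 0 and 1 Zfp genes were called higher, 2 and 7 lower, and 2 and 8 in all, with 2 in all (Zfp358 and Zfp869) without WT 1 and 3 lower without 5xFAD 1. Zfp genes with higher, non-overlapping 5xFAD groups numbered 7 to 11 with a library left out (11 without 5xFAD 2, 10 without WT 1), and lower ones 11 to 15 (15 without WT 1), against 6 and 10 with all libraries; fewer libraries overlap less often by construction. The share of all tested genes without overlap was not computed with a library left out, so these counts have no background beside them. Over all genes 78 were called higher and 186 lower with all libraries. Requiring a mean of 50, which leaves fewer genes, gave 49 higher and 116 lower. An adjusted p under 0.1 gave 134 higher, DESeq2 gave 163 higher, and omitting a library gave 56 to 84 higher and 145 to 192 lower. The Zfp median log2 fold change of 0.15 was -0.031 when the mean had to reach 50, -0.13 with edgeR, -0.081 with edgeR without a filter, -0.086 with DESeq2 and -0.22 to 0.10 with a library left out. With equal library totals the all-gene median was -0.14 and the Zfp median 0.034.

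Signs changed for 8 named genes that no setting called, with log2 fold changes from -0.78 for Zfp664 to 0.54 for Zfp521. Zfp207 was at 0.0012 with edgeR, 0.063 with edgeR without a filter and 0.032 with DESeq2. Zfp106 was at -0.058, -0.0072 and -0.013 in the same order. With a library left out, Zfp207 ran from -0.65 to 0.45, Zfp106 from -0.28 to 0.71, Zfp521 from -0.19 to 1.21, Zfp36l1 from -0.26 to 0.035 and Zfp36l2 from -0.62 to 0.035. Zfp664 ran from -1.31 to 0.19, Zfp280d from -0.26 to 0.77 and Zfp407 from -0.64 to 0.50.

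With the replicate block the counts were 1 higher and 5 lower Zfp genes and 80 higher and 190 lower genes in all. The deviations of libraries with the same number were uncorrelated (0.00247, -0.0157 and -0.0126 for the 3 numbers), and 0 of 6 libraries correlated best with their own number.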
